A study of Mus musculus with 15 samples.

Results

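The nuclear-encoded genes of oxidative phosphorylation were described in CD8+ T cells that had been primed with antigen, with or without costimulation. Members were the protein-coding genes of the GENCODE M21 annotation whose symbol begins with Ndufa, Ndufb, Ndufc, Ndufs, Ndufv, Uqcr, Atp5 or Cox followed by 4 to 8, together with Sdha, Sdhb, Sdhc and Sdhd. The rule uses symbols only and no measured value. It found 94 members among the 55536 annotated genes of the count table, of which 22028 are protein-coding. Complex I has 36 members, its assembly factors (Ndufaf genes) 8, complex II 4, complex III 8, complex IV 20 and complex V 18. Another 13 genes matched the symbols but are annotated as pseudogenes or noncoding RNA and were not counted as members.

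Poly(A) RNA was sequenced from CD8+ T cells of the OT-1 Tg C57BL/6J strain, which carry 1 transgenic T cell receptor against a peptide of ovalbumin and were moved into C57BL/6J hosts. The host also keeps T cells of its own, and sorting of donor cells from spleen and lymph nodes was used to leave them out. Recipients received antigen with a control antibody (Ag, n = 5) or antigen with agonist antibodies to OX40 and 4-1BB, a pair of costimulatory receptors (Ag+Costim, n = 5), and the labels give day 4 for the collection. Mice were of both sexes and their ages spanned several months, with no age given for a single library. The labels also list naive cells from OT-I mice without transfer, which were not analysed here.

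Oxidative phosphorylation takes place at the inner membrane of mitochondria. Complex I takes electrons from NADH and complex II from succinate, complex III passes them to cytochrome c, complex IV hands them to oxygen, and complex V (ATP synthase) uses the resulting proton gradient to make ATP. Complexes I, III, IV and V are built from subunits of both the nuclear and the mitochondrial genome, whereas complex II is wholly nuclear-encoded. T cells that leave rest and divide are known to enlarge their mitochondria and to raise both glycolysis and respiration.

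Libraries held 59.6 to 639 M (mega) estimated counts, which derive from read coverage and are not numbers of reads. Between 20714 and 51778 genes had a count in an Ag library and between 28727 and 30340 in an Ag+Costim library. CD8+ T cell markers (10 genes) summed to 6612 to 13063 CPM, that is, counts relative to library totals corrected by the trimmed mean of M values (TMM), in Ag, against 9034 to 10846 CPM in Ag+Costim. B cell markers (10 genes) summed to 649 to 1254 and 519 to 776 CPM, erythroid markers (10) to 14.9 to 1111 and 3.97 to 41.0 CPM, myeloid markers (11) to 67.6 to 169 and 98.5 to 220 CPM, and CD4+ T cell markers (4) to 3.74 to 26.4 and 3.16 to 8.20 CPM. The erythroid sum was highest in Ag replicate 3. Defining markers of these other cell types were detected, and in these lists 0 markers were at 0 in every library. Their part in the results was not tested.

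The first question was how strongly these cells express the machinery. A mean level of 10 CPM or more was reached by 84 members, and 5 further members were tested below it (Cox4i2, Cox6a2, Cox6b2, Cox7a1 and Atp5s). Another 5 did not pass the filter on low counts (Cox7b2, Cox8b, Cox8c, Ndufa4l2 and Donson-Atp5o, a read-through gene at 0 in every library). Levels of different genes were compared per length, as each transcript's count divided by its length, summed over the gene and set to the same total in each library (TPM). The median TPM in Ag+Costim was 282 for complex I (101 for Ndufb4 to 593 for Ndufb7), 402 for complex II, 503 for complex III, 835 for complex IV and 575 for complex V. The assembly factors, which act on complex I during its construction and are not kept in it, had a median of 43.8 TPM.

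Atp5b, the beta subunit with the catalytic sites of ATP synthase, was the highest member per length, at 1596 ± 628 TPM in Ag, against 2307 ± 162 TPM in Ag+Costim (± SD, n = 5 each). The highest members of the other complexes in Ag+Costim were Cox8a (1287 ± 30.8 TPM), Uqcr10 (710 ± 25.6 TPM), Sdhb (640 ± 17.2 TPM) and Ndufb7 (593 ± 18.9 TPM). Among assembly factors it was Ndufaf8 (70.1 ± 3.02 TPM). Within complex II, levels ranged from 62.0 ± 2.36 TPM for the membrane anchor Sdhc to the value of the iron-sulfur subunit Sdhb.

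Where complex IV has paralogous subunits, the commonly expressed form stood far above the tissue form in both groups. Subunit 4 was present as Cox4i1 (1248 ± 271 TPM in Ag, 1250 ± 16.2 TPM in Ag+Costim), while the lung form Cox4i2 was at 0.329 ± 0.492 and 0.197 ± 0.0601 TPM. Subunit 6A was present as Cox6a1 (1152 ± 403 and 1267 ± 39.0 TPM), while the muscle form Cox6a2 was at 0.807 ± 0.295 and 0.563 ± 0.187 TPM. Subunit 6B was Cox6b1 (905 ± 260 and 951 ± 34.6 TPM), with the testis form Cox6b2 at 3.32 ± 1.15 and 2.85 ± 0.383 TPM. In these pairs the ranges of both forms lay apart in each group.

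Subunit 7A had 3 genes with a measurable level. Cox7a2 was at 457 ± 185 TPM in Ag, against 529 ± 17.9 TPM in Ag+Costim. Cox7a2l, whose product joins complexes III and IV in supercomplexes, was at 189 ± 63.2 and 128 ± 9.77 TPM. The muscle form Cox7a1 was at 5.12 ± 2.63 and 6.56 ± 0.680 TPM.

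The tissue forms of subunits 7B, 8 and Ndufa4 were close to 0. Cox7b2 held 198, 0, 149, 62 and 0 counts in Ag replicates 1 to 5 and a count in only 1 Ag+Costim library, at 14. Cox8b held 13 counts in each of Ag replicates 1 and 3 and was at 0 in the other libraries. Cox8c held at most 24 counts and Ndufa4l2 at most 27 in any library, while Ndufa4 was at 789 ± 269 TPM in Ag and 838 ± 25.8 TPM in Ag+Costim. Ndufa4 is a subunit first ascribed to complex I and now placed in complex IV.

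The c ring of ATP synthase is encoded by 3 genes that give the same mature protein after their targeting peptides are removed. Atp5g3 was the highest, at 1057 ± 375 TPM in Ag, against 1274 ± 52.9 TPM in Ag+Costim. Atp5g1 followed with 392 ± 173 and 451 ± 64.4 TPM, and Atp5g2 with 366 ± 80.3 and 368 ± 6.33 TPM. Atp5g1 and Atp5g2 did not differ from each other beyond their spread in Ag. Both have near-identical annotated pseudogenes, whose counts came to 22.7% and 31.7% of those of the member, so the split of reads between them is uncertain.

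The groups were set apart mainly by their uniformity. Members were nearly equal in the 5 Ag+Costim libraries and far apart in the 5 Ag libraries. The coefficient of variation (CV) of a member's CPM had a median of 52.5% in Ag (23.8% to 68.6%) and 4.29% in Ag+Costim (1.37% to 13.9%), over the 84 expressed members. All 84 had the larger CV in Ag, and the difference in spread was not tested. Over the 8626 genes at 10 CPM or more the medians were 32.2% and 8.54%, and 8304 genes had the larger CV in Ag. The size of these CVs depends on the TMM factors. Without scaling, members together held 1.92% ± 0.577 of all gene counts in Ag, against 2.07% ± 0.0451 in Ag+Costim (SD), a smaller relative spread in Ag.

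Levels in Ag were spread to either side of those in Ag+Costim. Relative to the Ag+Costim mean, the median member was at -1.01 in Ag replicate 1, 0.28 in replicate 2, -0.62 in replicate 3, -0.95 in replicate 4 and 0.66 in replicate 5 (log2 CPM). In replicates 1, 3 and 4, respectively 83, 84 and 83 of the 84 members lay below every Ag+Costim library, against 69.7%, 79.1% and 62.0% of the 8626 genes. In replicates 2 and 5, respectively 61 and 79 members lay above every Ag+Costim library, against 28.2% and 37.0% of the genes.

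The order of the Ag libraries was shared by nearly all members. Replicates 2 and 5 were the highest of Ag in 83 members, with Cox7a2l as the exception (53.8% of genes). In 79 members, Ag values were found both above and below all Ag+Costim libraries (55.2% of genes). Fewer cells of a type and less RNA per cell cannot be told apart in such bulk samples.

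**Figure D1:**
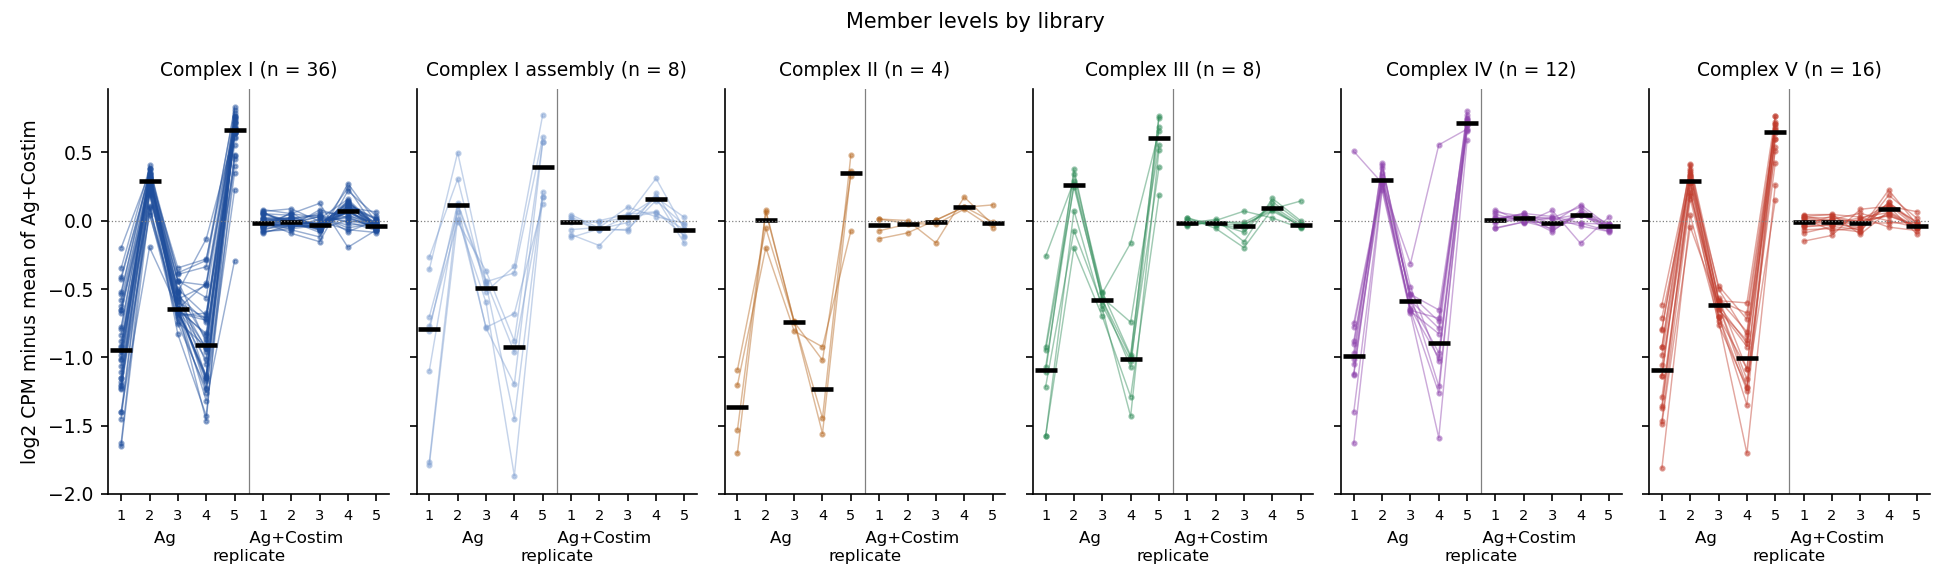
Level of each of the 84 expressed members by library, as log2 CPM minus the member's mean in Ag+Costim, in 1 panel per complex. Thin lines join the values of 1 member, black bars are medians, and the numbers of the replicates carry no order. Ag medians lie between -1.37 and 0.72, while the Ag+Costim points form narrow bands around 0.

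The complexes followed 1 pattern, with small differences of size. Median deviations in Ag replicate 1 were -0.95 for complex I, -1.37 for complex II, -1.09 for complex III, -0.99 for complex IV, -1.10 for complex V and -0.79 for the assembly factors. In Ag replicate 5 they were 0.66, 0.35, 0.60, 0.72, 0.65 and 0.39 in the same order. Complex II was thus the lowest complex in replicate 1 and the least raised one in replicate 5.

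Proliferation markers and measures of the library moved with these levels. The summed CPM of 20 proliferation markers was 1568, 11591, 7294, 1685 and 12843 in Ag replicates 1 to 5, and 11640 to 14640 in Ag+Costim. The number of genes with a count was 48058, 21779, 51778, 40441 and 20714 in the same Ag libraries, and their TMM factors were 1.40, 0.907, 1.21, 1.25 and 0.826. Ag replicates 1, 3 and 4, which were low in members, thus had proliferation sums below all other libraries, many detected genes and high TMM factors. The proliferation sum of replicate 3 was intermediate, well above those of replicates 1 and 4. The part of any of these measures in the member levels was not tested.

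Expressed as a share of all gene counts, which needs no scaling factor, members held 1.44%, 2.35%, 1.74%, 1.38% and 2.69% in Ag replicates 1 to 5 and 2.03% to 2.15% in Ag+Costim. The means were 1.92% ± 0.577 and 2.07% ± 0.0451 (SD, n = 5 per group), so the groups overlapped. Complex V held the largest part, with 0.714% ± 0.236 in Ag, against 0.822% ± 0.0262 in Ag+Costim. Complex I followed with 0.523% ± 0.144 and 0.528% ± 0.0104, and complex IV with 0.365% ± 0.115 and 0.358% ± 0.00907.

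Complex III held 0.177% ± 0.0499 of the counts in Ag, against 0.194% ± 0.00707 in Ag+Costim. Complex II held 0.117% ± 0.0323 and 0.147% ± 0.00477, and the assembly factors 0.0248% ± 0.00471 and 0.0253% ± 0.00102. Every complex overlapped between the groups, with Ag replicate 5 above all Ag+Costim libraries.

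**Figure D2:**
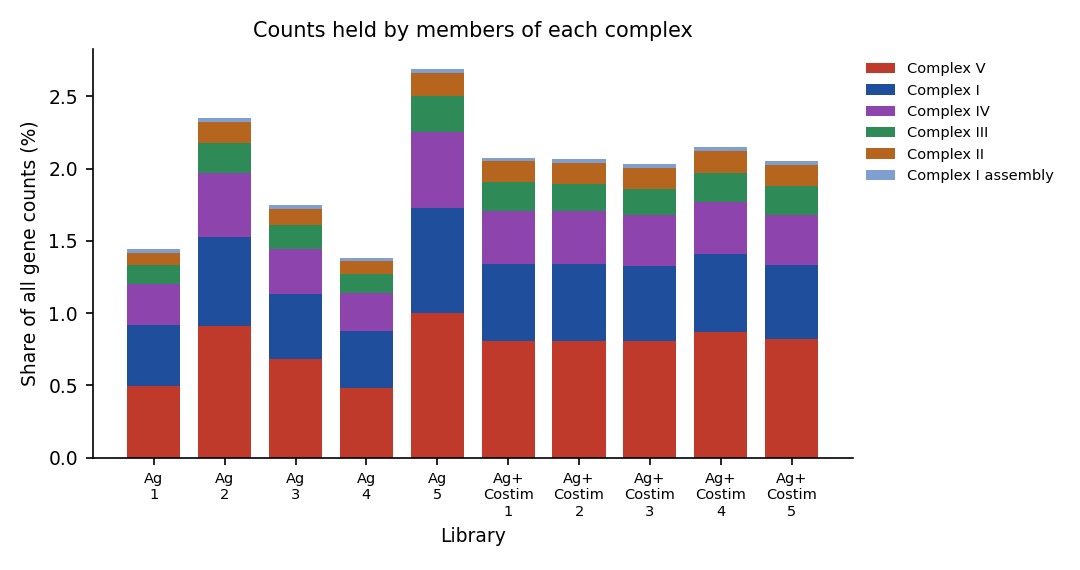
Share of all gene counts held by the members of each complex, stacked, in each of the 10 libraries (percent, axis from 0). Ag libraries hold 1.38% to 2.69% and Ag+Costim libraries 2.03% to 2.15%.

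On TMM-scaled CPM, the 13 subunits encoded by mitochondrial DNA varied less among the Ag libraries than the nuclear members. The size of this contrast depends on the scaling. Without scaling, all genes of mitochondrial DNA held 1.77%, 1.20%, 1.96%, 1.84% and 1.22% of gene counts in Ag replicates 1 to 5. That share was thus higher in replicates 1, 3 and 4, where the share of members was lower. The summed CPM of the 13 subunits was 8594, 10534, 11037, 10236 and 11700 in Ag replicates 1 to 5, a largest to smallest ratio of 1.36, while that of the members was 3.15. The ratio of nuclear to mitochondrial CPM was 1.20, 2.46, 1.33, 1.08 and 2.78 in Ag, against 2.26 to 2.84 in Ag+Costim (1.77 ± 0.789 and 2.46 ± 0.249, SD, n = 5 per group). Ag replicates 1, 3 and 4 lay below every Ag+Costim library in this ratio, and replicates 2 and 5 lay within their range.

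Next, Ag+Costim was compared with Ag gene by gene over 24262 genes, 89 of them members. With edgeR's quasi-likelihood test, 0 members passed a Benjamini-Hochberg (BH) adjusted p of 0.05, where the background over all genes was 0.0%. The lowest BH value of a member was 0.245. An unadjusted p under 0.05 was reached by 2 members, Ndufs1 and Sdha, both higher in Ag+Costim, where the background was 7.89% of genes higher and 10.7% lower. DESeq2 called 2 of 93 members, Ndufs1 higher and Cox7a2l lower (background 1.72% higher and 13.1% lower, 14.8% in all).

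The count of calls depended on the tool. With limma voom and a quality weight per library, 83 of 89 members were called, 82 higher and Cox7a2l lower, against 25.7% of genes higher and 26.3% lower. Among the 8626 genes at 10 CPM or more, 57.6% were called higher and 12.5% lower in that fit. It gave Ag replicates 1 to 5 weights of 1.42, 0.0986, 0.508, 2.00 and 0.0656, so that its largest weights within Ag were those of replicates 4 and 1, in which members were low.

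In 1 member, Ndufs1, all values of Ag+Costim exceeded all those of Ag (background 4.48% of the genes tested, and 11.3% of those at 10 CPM or more), and in 0 members all were below (background 1.13%, and 0.22% at 10 CPM or more). Without Ag replicate 5, the members above without overlap were Ndufs1, Sdha, Uqcrc2 and Cox7a1 (background 7.01%). In that fit 21 members had an unadjusted p under 0.05, 20 higher and 1 lower (background 12.7% and 21.1%), and 0 passed BH. Without Ag replicate 3, Cox7a2l was lower without overlap (background 2.18%).

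The fitted log2 fold change was positive in 74 and negative in 10 of the 84 expressed members, with a range of -0.38 to 0.69. Most expressed genes leaned the same way: 75.6% of the 8626 genes at 10 CPM or more were positive, against 88.1% of these members. The median log2 fold change was 0.16 for the members tested and 0.24 for genes at 10 CPM or more. Both medians depend on the scaling: DESeq2 size factors gave 0.06 and 0.12, scaling by total counts -0.0025 and 0.00038, and upper quartile factors -0.03 and 0.02. The members' median was thus below that of expressed genes under these 4 scalings, and above it in limma voom (0.86 against 0.44) and without Ag replicate 5 (0.47 against 0.36). Without Ag replicate 1 the members' median was 0.0039, without replicate 4 it was 0.0077, without replicate 2 it was 0.29 and without replicate 5 it was 0.47. By complex, the medians were 0.14 for complex I, 0.31 for the assembly factors, 0.45 for complex II, 0.17 for complex III, 0.11 for complex IV and 0.17 for complex V.

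**Figure D3:**
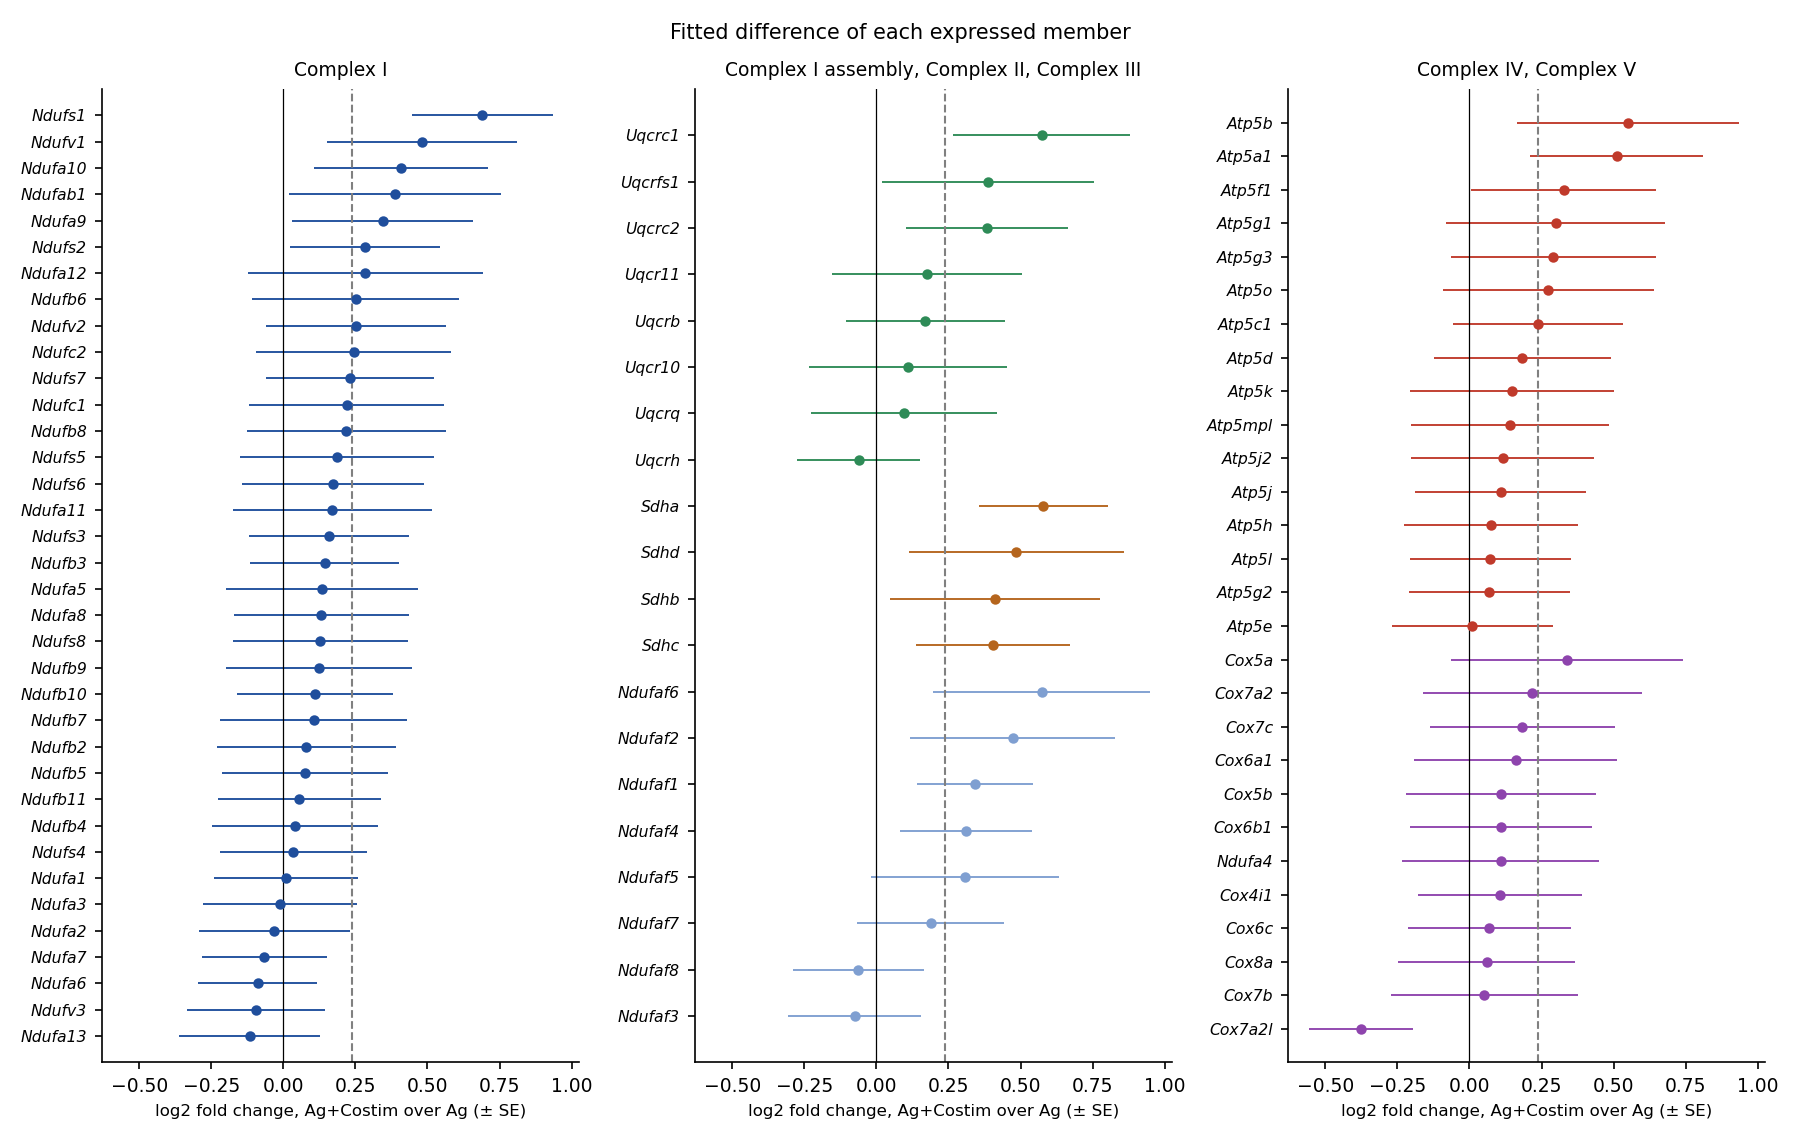
Fitted log2 fold change of each of the 84 expressed members, Ag+Costim over Ag, with its standard error (edgeR), in panels by complex. The dashed line marks the median of genes at 10 CPM or more, 0.24. Values run from -0.38 for Cox7a2l to 0.69 for Ndufs1.

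In complex I, the N module takes up NADH, the Q module reduces ubiquinone and the membrane arm pumps protons. Ndufs1 (chromosome 1, 63143596 to 63176833, mm10), the large iron-sulfur subunit of the N module, was at 85.3, 196, 144, 90.1 and 183 CPM in Ag, against 223, 211, 202, 262 and 230 CPM in Ag+Costim. All Ag+Costim values were above the highest Ag value, although Ag replicates 2 and 5 came close. The log2 fold change was 0.69 ± 0.24 (SE, BH 0.245 in edgeR).

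Ndufv1 (chromosome 19, 4007384 to 4012806), which binds NADH and the flavin, was at 67.5, 227, 129, 88.7 and 248 CPM in Ag, against 200 to 227 CPM in Ag+Costim. Ag replicates 2 and 5 were level with or above the Ag+Costim libraries, and the log2 fold change was 0.48 ± 0.33 (BH 0.377). The lowest values of complex I were those of 2 accessory subunits. Ndufa13 was at 174, 289, 168, 175 and 392 CPM in Ag, against 208 to 235 CPM in Ag+Costim (-0.12 ± 0.25, BH 0.773). Ndufv3 was at 84.9, 144, 87.6, 93.3 and 200 CPM in Ag, against 108 to 118 CPM in Ag+Costim (-0.09 ± 0.24, BH 0.811). For both, replicates 2 and 5 were above and the other Ag libraries below Ag+Costim.

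The highest assembly factors by fold change were Ndufaf6 (7.33 to 30.3 CPM in Ag, 24.6 to 30.1 CPM in Ag+Costim, log2 fold change 0.57 ± 0.38, BH 0.360) and Ndufaf2, a paralogue of Ndufa12 (16.0 ± 8.75 and 22.2 ± 3.08 CPM, 0.47 ± 0.36, BH 0.414). Ndufaf3 (41.8 ± 16.7 and 39.7 ± 1.29 CPM, -0.08 ± 0.23) and Ndufaf8 (35.5 ± 13.3 and 34.0 ± 1.61 CPM, -0.06 ± 0.23) were the lowest. Of the exonic bases of Ndufaf2, 65.7% overlap another gene. Since the reads were counted without strand, the level of Ndufaf2 is uncertain, as is that of Ndufa13, which overlaps Tssk6 over a smaller share.

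Complex II also serves the tricarboxylic acid (TCA) cycle as succinate dehydrogenase. Sdha (chromosome 13, 74322254 to 74350280), the flavoprotein that oxidises succinate, was at 273, 548, 359, 331 and 596 CPM in Ag, against 574, 591, 631, 673 and 681 CPM in Ag+Costim. Only Ag replicate 5 reached into the Ag+Costim range, and the log2 fold change was 0.58 ± 0.22 (BH 0.256 in edgeR). The other subunits followed the common pattern with both high Ag libraries overlapping Ag+Costim.

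Sdhb was at 166, 504, 287, 176 and 666 CPM in Ag, against 462 to 507 CPM in Ag+Costim (0.41 ± 0.36, BH 0.483). The anchor Sdhd was at 115, 392, 224, 127 and 483 CPM in Ag, against 335 to 422 CPM in Ag+Costim (0.49 ± 0.37, BH 0.423). Sdhc was at 58.1, 119, 74.1, 61.0 and 156 CPM in Ag, against 118 to 133 CPM in Ag+Costim (0.40 ± 0.27, BH 0.361). All 4 fold changes of complex II were above the median of expressed genes.

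Complex III moves electrons from ubiquinol to cytochrome c. Uqcrc1 (chromosome 9, 108936633 to 108949623), a core protein that does not itself carry electrons, was at 204, 529, 374, 249 and 691 CPM in Ag, against 617, 584, 530, 645 and 671 CPM in Ag+Costim. Ag replicate 5 was above all Ag+Costim libraries, and replicate 2 was just below them. The log2 fold change was 0.57 ± 0.31 and did not pass BH. The Rieske iron-sulfur subunit Uqcrfs1 was at 208 ± 128 and 272 ± 21.4 CPM (0.39 ± 0.37, BH 0.513).

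The small accessory subunits of complex III were nearer to 0. Uqcrq was at 204 ± 113 CPM in Ag, against 218 ± 6.35 CPM in Ag+Costim (log2 fold change 0.10 ± 0.32). The hinge protein Uqcrh was at 189 ± 64.4 and 181 ± 6.25 CPM (-0.06 ± 0.21). The electron carriers outside the member list lay within the range of the members. Cytochrome c, Cycs, had a log2 fold change of 0.51 ± 0.46 (BH 0.485 in edgeR). Cytochrome c1, Cyc1, had a log2 fold change of 0.33 ± 0.39 (BH 0.589). Cyc1 is itself a subunit of complex III that the symbol rule misses, so the complex III values leave it out.

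In complex IV, 11 of the 12 expressed members had a log2 fold change between 0.05 and 0.34. Cox5a was highest, with 124, 448, 240, 127 and 578 CPM in Ag, against 363 to 404 CPM in Ag+Costim (0.34 ± 0.40, BH 0.599). Cox7a2 was at 196 ± 128 and 228 ± 10.5 CPM (0.22 ± 0.38), and Cox7b at 167 ± 93.8 and 173 ± 5.39 CPM (0.05 ± 0.32).

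Cox7a2l (chromosome 17, 83501918 to 83517330), the supercomplex factor, differed from the other members in the order of its libraries. It was at 128, 109, 72.4, 132 and 143 CPM in Ag, against 95.1, 88.8, 94.8, 80.2 and 91.6 CPM in Ag+Costim. Ag replicates 1, 2, 4 and 5 were above all of Ag+Costim, and only replicate 3 was below. The log2 fold change was -0.38 ± 0.18 (BH 0.277 in edgeR). It was the 1 member called lower by the other tools, with a BH of 0.0386 in DESeq2 and 0.0085 in limma voom.

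In ATP synthase the catalytic head had the largest values. Atp5b (chromosome 10, 128083273 to 128090391) was at 820, 2961, 1735, 884 and 3460 CPM in Ag, against 2750, 2770, 2723, 3280 and 2916 CPM in Ag+Costim, with Ag replicates 2 and 5 within or above the Ag+Costim range (log2 fold change 0.55 ± 0.39, BH 0.386). The alpha subunit Atp5a1 was at 576, 1565, 1049, 694 and 1791 CPM in Ag, against 1454 to 1736 CPM in Ag+Costim (0.51 ± 0.30, BH 0.325). Both overlapped between the groups through the same replicates.

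The remaining subunits of ATP synthase were lower by fold change. The epsilon subunit Atp5e of the rotating stalk was at 210 ± 102 CPM in Ag, against 212 ± 5.52 CPM in Ag+Costim (0.01 ± 0.28). Of the c ring genes, Atp5g1 was at 194 ± 125 and 239 ± 22.4 CPM (0.30 ± 0.38), Atp5g3 at 492 ± 291 and 602 ± 30.3 CPM (0.29 ± 0.35) and Atp5g2 at 167 ± 80.8 and 175 ± 5.25 CPM (0.07 ± 0.28). The 4 expressed members of the peripheral stalk had a median log2 fold change of 0.19, and the 4 of the membrane part one of 0.13.

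Members with large fold changes were mostly long transcripts. Across the 84 expressed members, log2 fold change and transcript length, weighted by counts, had a Spearman rho of 0.51, while across the 8626 genes it was 0.08. Both are descriptions across genes that share the same 10 libraries. The median log2 fold change was 0.11 in the 39 members under 800 bases, 0.13 in the 28 from 800 to under 1500 bases and 0.39 in the 17 of 1500 bases or more. Genes of the same lengths had medians of 0.03, 0.18 and 0.27. The longest class holds the catalytic or core subunits Ndufs1, Sdha, Uqcrc1, Atp5b and Atp5a1 and also accessory subunits, among them Ndufa10 (0.41), Ndufab1 (0.39) and Ndufs4 (0.04). Core subunits of complex I with shorter transcripts had values of 0.23 (Ndufs7), 0.16 (Ndufs3) and 0.13 (Ndufs8).

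**Figure D4:**
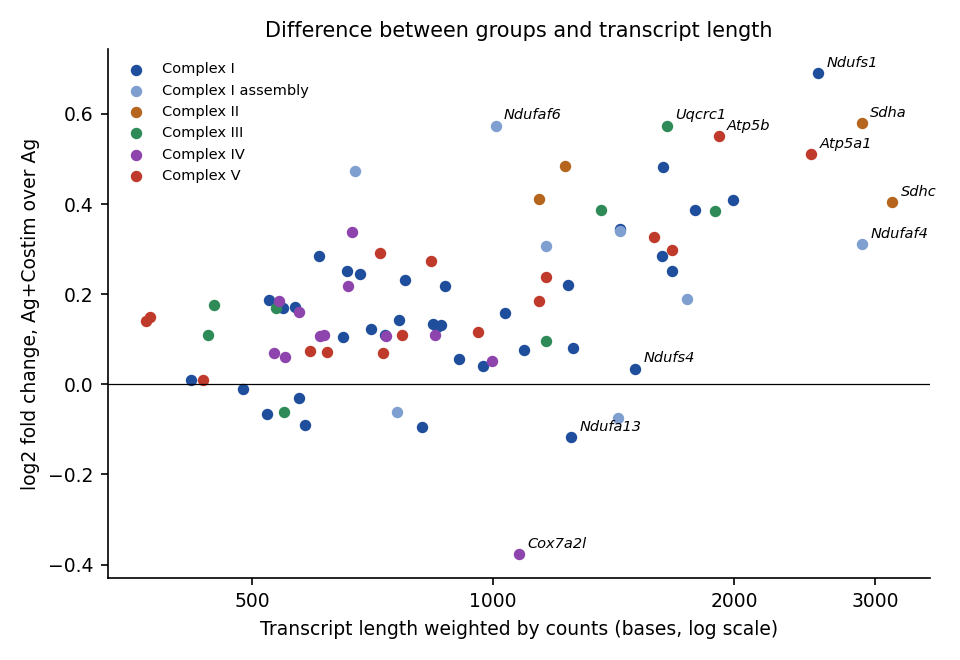
Log2 fold change (Ag+Costim over Ag) against transcript length in bases, weighted by counts, on a log axis, for 84 expressed members coloured by complex. Members of 1500 bases or more have a median of 0.39, with Ndufs1 at 0.69 and Sdha at 0.58, and Cox7a2l lies lowest at -0.38.

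To compare members with one another, each library was also scaled by the geometric mean of its expressed members. This step was chosen after the values had been seen. It takes out the average level of the members in a library, but not every order of libraries that members share. On this scale the sizes are relative to the average member, so some members must be higher and others lower. The median CV dropped to 9.32% in Ag, against 3.18% in Ag+Costim. Without overlap between groups, 6 members were higher in Ag+Costim (Ndufa9, Ndufa10, Ndufv1, Sdhb, Sdhc and Atp5b) and 9 were lower (Ndufa2, Ndufa6, Ndufa7, Ndufa13, Ndufb4, Ndufv3, Ndufaf3, Cox8a and Atp5l), with a background of 7.34% and 1.11% of genes at 10 CPM or more. In edgeR with this scaling, 17 members had an unadjusted p under 0.05 (8 higher and 9 lower, background 3.87% and 18.1%) and 0 passed BH.

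The higher members on this scale were the core or catalytic subunits Ndufv1, Sdhb and Atp5b, the accessory subunits Ndufa9 and Ndufa10, and the membrane anchor Sdhc. Their share of the expressed members was near the background of 7.34%. Atp5b was at 1524, 2332, 2439, 1564 and 2138 in Ag, against 2560 to 2879 in Ag+Costim (CPM scaled to the members). Ndufv1 was at 126, 178, 182, 157 and 153 in Ag, against 188 to 210 in Ag+Costim. Ndufa10 was the most even, with 178 to 197 in Ag, against 216 to 229 in Ag+Costim. These differences were between 0.21 and 0.42 on the log2 scale, and the lowest BH in this fit was 0.227.

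In Ndufa6, Ndufa13 and Cox7a2l, Ag replicates 1 and 4 stood above the other Ag libraries. These replicates also stood apart in further members. They were higher in Uqcrh (281 and 286, against 175 to 176 in the other Ag libraries). In Cox5a they were lower (230 and 225, against 337 to 357), as they were in Atp5b. Ndufa6, an accessory subunit of the N module, was at 134, 83.1, 80.8, 133 and 79.7 in Ag, against 75.6 to 77.7 in Ag+Costim. Ndufa13 was at 323, 228, 236, 309 and 242 in Ag, against 185 to 219 in Ag+Costim. Cox7a2l was at 238, 85.8, 102, 234 and 88.5 in Ag, against 70.4 to 89.1 in Ag+Costim, so that its difference rested on replicates 1, 3 and 4.

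**Figure D5:**
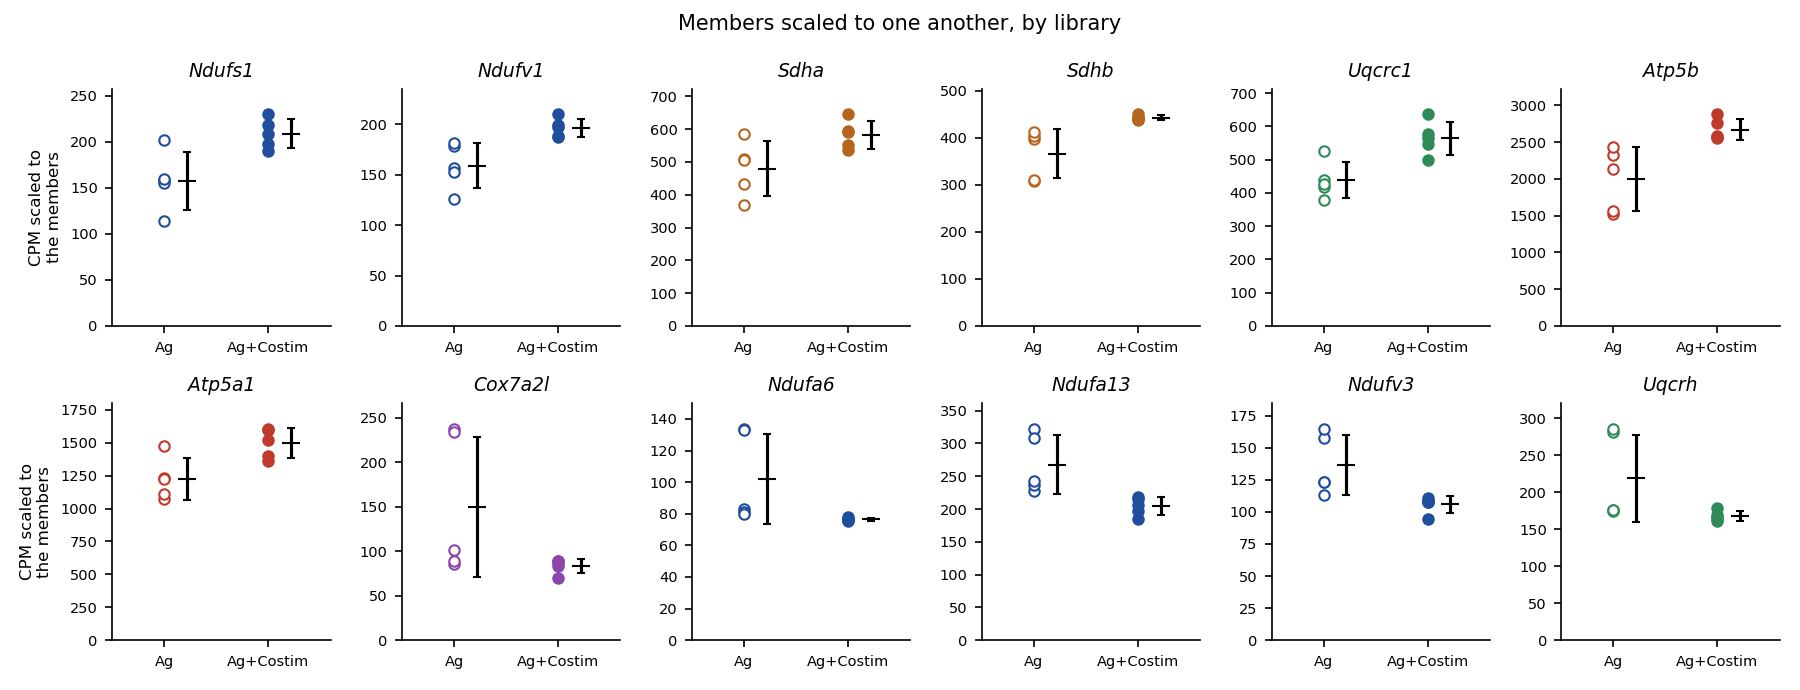
CPM scaled to the geometric mean of the expressed members, by library, for 12 members (open points Ag, filled points Ag+Costim, with mean ± SD, n = 5 per group, axes from 0). Atp5b lies at 1524 to 2439 in Ag, against 2560 to 2879 in Ag+Costim, and the spread of Cox7a2l comes from a pair of Ag libraries at 234 and 238.

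Promoters of members were searched for 5 motifs, because members shared 1 order of libraries. Sequences came from RefSeq (GRCm38.p6), from 250 bases before to 50 bases after each start, with 79 promoters for 74 of 93 member symbols. The NRF1 core CGCATGCG was found in 11 member promoters (13.9%) and in 1.87% of all 32851 promoters. The YY1 motif AAGATGG was in 11 (13.9%, all promoters 6.34%), the ETS motif CCGGAAGT in 5 (6.33%, all 3.89%), the cAMP response element TGACGTCA in 4 (5.06%, all 1.79%) and the ERRA motif TCAAGGTCA in 2 (2.53%, all 0.423%). Both strands were read, the NRF1 and cAMP motifs are palindromes, and a match is a description of letters only. The member promoters were also richer in G and C (median 57.7% against 52.7%).

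Short windows around the motifs are shown for the members with a motif that are among the highest or lowest by fold change in their complex, with the motif in capitals and 30 bases in all. The motifs of other members are not shown. Positions count from 1 at the start, with negative numbers before it. The NRF1 motif lies at -41 in Atp5g2 and at 32 in Uqcrc1, the cAMP motif at -29 in Uqcrfs1, the ETS motif, on the other strand, at -11 in Uqcrh, and the YY1 motif at 11 in Ndufaf8.
Atp5g2, chr15:102671070-102671099, minus strand: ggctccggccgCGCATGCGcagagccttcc
Uqcrc1, chr9:108936668-108936697, plus strand: actccgctctgCGCATGCGcagcgcggctc
Uqcrfs1, chr13:30545327-30545356, minus strand: cggcgtcgcgcTGACGTCAcaaaccctgcg
Uqcrh, chr4:116075063-116075092, minus strand: gagtatgccgcACTTCCGGccaggtcgccg
Ndufaf8, chr11:120098933-120098962, plus strand: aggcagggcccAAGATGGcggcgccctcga
The log2 fold changes of these 5 members ran from -0.06 (Uqcrh, Ndufaf8) over 0.07 (Atp5g2) and 0.39 (Uqcrfs1) to 0.57 (Uqcrc1). They were picked as the highest or lowest of their complex, so this spread says nothing about the motifs.

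The bases before the start are shown for Atp5b, the highest member per length, and for Cox7a2l, the member with the other order of libraries. Neither holds any of the 5 motifs in its window, and so no letters are in capitals.
Atp5b, chr10:128083057-128083272, plus strand: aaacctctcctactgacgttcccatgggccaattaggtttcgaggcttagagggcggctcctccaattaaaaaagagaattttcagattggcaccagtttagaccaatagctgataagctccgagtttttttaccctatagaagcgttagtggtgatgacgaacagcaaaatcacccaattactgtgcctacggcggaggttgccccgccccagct
Cox7a2l, chr17:83514334-83514583, minus strand: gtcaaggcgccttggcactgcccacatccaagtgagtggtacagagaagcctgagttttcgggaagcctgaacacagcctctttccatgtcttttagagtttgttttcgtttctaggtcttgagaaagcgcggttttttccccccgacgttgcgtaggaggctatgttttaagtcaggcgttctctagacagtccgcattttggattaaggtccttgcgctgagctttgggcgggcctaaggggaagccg
The Cox7a2l stretch lies before the RefSeq start and, in the GENCODE annotation, within the span of the gene but outside its exons.

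Transcript usage, the share of a gene's counts that each transcript holds, was tested for 79 members with edgeR's diffSpliceDGE. With a BH of 0.05 and a change in share above 0.1, 0 members were called, where the background was 0.278% of 10442 genes, and 6 members had an unadjusted p under 0.05. With limma's diffSplice, 1 member was called, Atp5a1 (background 1.38%). Its main coding transcript Atp5a1-201 held 98.2%, 99.8%, 99.1%, 77.7% and 99.8% of the counts in Ag, against 73.4% to 82.2% in Ag+Costim, a difference of -15.6 percentage points (BH 0.0762 in edgeR, 1.00e-04 in limma). Ag replicate 4 alone lay in the Ag+Costim range, and without it the gene was called in edgeR (BH 7.75e-09).

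Shares did not overlap between groups in 2 members, against a background of 3.73% of genes. The transcript Cox4i1-201 held 75.4%, 76.3%, 79.9%, 71.6% and 87.4% in Ag, against 94.5% to 97.8% in Ag+Costim (BH 0.502 in edgeR). The transcript Ndufb2-202 held 73.5% ± 2.57 in Ag, against 78.2% ± 0.736 in Ag+Costim (± SD, n = 5 each). The transcript Atp5f1-203, annotated as a target of nonsense-mediated decay, held 20.2% in Ag replicate 5 and at most 0.699% in the other 9 libraries (BH 0.0862).

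Splicing events were read from the deposited percent spliced in (PSI) values, of which each group has 1 with no replicates. Of 474 events in 84 members, 19 (4.01%) differed by more than 0.05, against 11.9% of 138940 events in the table. None of the 309 core exons of members was among them, and 17 of the 19 were transcript ends or starts. In Atp5c1, the gamma subunit that forms the rotating shaft, the distal stretch of the last exon spans only chromosome 2, 10056016 to 10056029. Its PSI was 0.598 for Ag, against 0.798 for Ag+Costim, and that of the stretch before it 0.401 and 0.203. In Atp5j the end at chromosome 16, 84827866 to 84827870 had 0.894 and 0.994.

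Related gene lists were read for comparison, and in all of them 0 genes passed BH in edgeR. The 13 mitochondrially encoded subunits had a median log2 fold change of -0.22, from -0.44 ± 0.13 for mt-Nd4 to 0.06 ± 0.22 for mt-Nd1. Of these, 11 were below 0, while 75.6% of genes at 10 CPM or more were above 0. In mt-Nd4 every Ag+Costim value was below every Ag value (392 ± 42.3 CPM in Ag, against 289 ± 18.9 CPM in Ag+Costim, SD, n = 5 each, BH 0.211 in edgeR, background 0.22% of genes at 10 CPM or more). The 45 tested assembly factors of other complexes or of complex I outside the Ndufaf genes had a median of 0.18, with 2 higher without overlap (Lrpprc and Tmem186, background 4.48% of genes tested). Of those at 10 CPM or more, the highest was Taco1, a translational activator of mt-Co1, at 0.84 ± 0.26, and the lowest Uqcc3 at -0.35 ± 0.20. Ttc19, below that level, was at -0.38 ± 0.21.

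The 17 TCA cycle enzymes had a median log2 fold change of 0.48, from 0.19 ± 0.19 for Idh3b to 0.75 ± 0.44 for Idh3a. All were above 0, as were 75.6% of genes at 10 CPM or more, and 1 was higher without overlap (Ogdh, background 11.3% at 10 CPM or more). The 20 genes listed as regulators of mitochondrial biogenesis had a median of 0.40, and 4 were higher without overlap (Gabpa, Pprc1, Myc and Mtf1, background 4.48% of genes tested and 11.3% at 10 CPM or more). Mtf1 is a metal-responsive factor and does not do what the name of the list says. Pprc1, a coactivator of the PGC-1 family, was highest, at 28.4, 28.8, 42.4, 30.1 and 53.0 CPM in Ag, against 57.6 to 73.4 CPM in Ag+Costim (log2 fold change 0.82 ± 0.19, BH 0.154). Among the listed genes at 10 CPM or more, Polg2, a subunit of the mitochondrial DNA polymerase, was lowest at -0.12 ± 0.15. Below that level, the coactivator Ppargc1a was at 0.760, 0.0063, 7.76, 0.659 and 0.0081 CPM in Ag, against 0.0154 to 0.155 CPM in Ag+Costim (-4.75 ± 1.70, BH 0.245 in edgeR). Its level was by far the highest in Ag replicate 3, the library with the fewest counts. These lists hold genes that were chosen with earlier results of the data known.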

How the data were processed

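Poly(A) RNA-seq of 5 Ag and 5 Ag+Costim libraries (SMART-Seq v4 with Nextera XT, which keeps no strand) was used. The authors aligned reads to mm10 with HISAT2 2.1.0, sorted them with SAMtools 1.9 and estimated counts with StringTie 2.1.0. The deposited values are expected counts, whole numbers made from coverage, with no normalization. Totals are therefore not reads and no counting intervals are given. Per the file headers, the deposited Whippet table holds 1 fraction (PSI) per group. Its columns for the authors' own comparison (difference and probability) were not used. Rows that name no annotated gene held 0.0458% to 0.308% of the counts of a library and were left out.

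Gene counts were tested with edgeR 4.0.16 in R 4.3.3 (quasi-likelihood, filterByExpr by group, TMM, robust), with BH adjustment over all 24262 genes at 0.05. DESeq2 1.42.0, limma 3.58.1 (voom with quality weights, diffSplice), other scaling, no filter, leaving out each library and a replicate block were alternatives. The steps were tested on simulated data. Transcripts entered the usage test with 10 counts in 5 libraries. Copies were annotated genes at 95% identity over 50% of the transcript. Members and lists were chosen with earlier results of these data known. Named were, per complex, the 2 highest and 2 lowest fold changes among members at 10 CPM or more, all of complex II, the paralogue groups, the highest level per length and the lowest p, plus the highest and lowest gene of each related list. Other members were named after their values were seen. The labels give no culture or litter, so p-values measure the spread between these libraries. Cell collection is given as day 4 in the labels and slightly earlier in the methods.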

Additional observations from a re-analysis of the deposited data

Results flagged for a closer look

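In 74 groups of 5 libraries tested, 4 had a library far from the others by Dixon's criterion, and chance gives about 1 in 20. Cox7a1 was at 3.13 CPM in Ag replicate 5 and at 0.637 to 1.04 CPM in the other Ag libraries. It was at 1.99 CPM in Ag+Costim replicate 1 and at 1.57 to 1.67 CPM in the others. Cox4i2 was at 0.465 CPM in Ag replicate 3 and at most 0.0930 CPM in the other Ag libraries. Atp5g1, whose reads are shared with a near-identical copy, was at 278 CPM in Ag+Costim replicate 4 and at 224 to 233 CPM in the others.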

How the results depend on the processing

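Counts of members past BH were 0 in every edgeR fit, 2 with DESeq2 and 83 with limma voom, whose direction differed from edgeR, among the named members, for Ndufv3 (0.32), Ndufa13 (0.32), Ndufaf3 (0.28) and Ndufaf8 (0.32) and whose complex III median was 0.95. Members higher without overlap numbered 2 with total counts or no filter, 0 with upper quartile factors or in the DESeq2 fit, 1 with DESeq2 size factors in edgeR and 6 scaled to the members, where 9 were lower. Leaving out 1 library gave 1 to 4 higher, 0 to 1 lower and 0 to 1 with changed usage. Usage called 1 member with limma and 1 with the replicate block. With a PSI difference above 0.1, 8 events remained of the 19. Over protein-coding counts outside mitochondrial DNA, Ag+Costim shares were 2.18% (members), 0.555% (complex I), 0.0266% (assembly), 0.154% (II), 0.204% (III), 0.376% (IV) and 0.865% (V). With union exon length the median level was 303 TPM. Causes were not tested. Same-numbered libraries had correlations of -0.0997 to 0.113, so numbers mark no pairing, and the replicate block gave 0 members past BH and a median of 0.34 (genes at 10 CPM or more 0.30). The alternative on Whippet's probability was not run. The deposited counts hold no read depth, so its limit on these values is unknown.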

Other observations

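Of the 13 matching genes that are not annotated as protein-coding, Ndufb1-ps, annotated as a noncoding RNA at a bidirectional promoter, had the highest level. It was at 63.7, 150, 81.0, 65.1 and 193 CPM in Ag and 107 to 116 CPM in Ag+Costim, the same order of libraries as the members. Atp5l2-ps was at 4.49 to 11.5 CPM in Ag and 6.69 to 7.41 CPM in Ag+Costim, and the others were lower. Groups overlapped in all 13.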
